A study of Drosophila melanogaster with 6 samples.

Results

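Juvenile hormone breakdown and reception were followed through 7 genes in the body wall of Drosophila melanogaster larvae after optogenetically driven muscle contraction. The members were the rows of the count table whose FlyBase identifier carries the symbol Jhe, Jheh1, Jheh2, Jheh3, Met, gce or Kr-h1. All 7 were found among the 17477 genes of the table, and all 7 passed the low-count filter that left 9127 genes for testing. In the exercised larvae, the driver OK6-Gal4bc and the responder UAS-CsChrimbc put a red-light-gated cation channel into motor neurons, and light pulses made their body wall muscles contract over 2 h. The OK6-Gal4 driver is also active in some CCAP neurons, which are peptide hormone cells, so the model does not reach motor neurons alone. The control larvae were w1118, the strain to which both transgenic lines had been backcrossed, and received the same 2 h of light without carrying a driver or a channel. Both groups were L3 larvae (the last larval instar) of mixed sex, were fed all-trans retinal overnight and were lit in a shallow sucrose solution. Genotype and exercise therefore differ together and cannot be told apart. Each group had 3 libraries of polyA-selected RNA from larval cuticle preparations with the body wall muscles attached.

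Juvenile hormone is a sesquiterpenoid made by the corpora allata, which in fly larvae are part of the ring gland. In many insects it holds the larva in the larval state, and its decline late in the last larval instar lets ecdysone start metamorphosis. The hormone is an ester with an epoxide ring. Juvenile hormone esterase cuts the ester bond and the epoxide hydrolases open the ring, and either step inactivates it. Inside the cell it binds Met or gce, related bHLH-PAS transcription factors that pair with tai, and the pair switches on Kr-h1, a zinc finger repressor that blocks metamorphosis genes.

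The libraries held 19625425 to 23953341 counts. Values below are CPM, the counts scaled to a common library size with the trimmed mean of M-values (TMM), and changes are log2 fold changes of exercised against control larvae from the quasi-likelihood test of edgeR. A gene passed at an adjusted p under 0.05, with p-values adjusted by the Benjamini and Hochberg method over all 9127 genes. The labels call the libraries biological replicates but do not say how many larvae went into each. Body wall muscle markers dominated every library, with the 8 measured ones summing to 126408 to 142004 CPM without exercise and 127637 to 140117 CPM with it. The libraries differed in tissues that a dissection can leave behind. Fat body markers summed to 420 to 3641 CPM across the controls, with replicate 3 the highest, and to 5065 to 6764 CPM across the exercised libraries. Of these 8 markers 2, Lsp1gamma and Fbp1, were called higher and 0 lower. The larval serum protein gene Lsp1gamma alone was at 1.78 to 2.54 CPM in every control and 1654 to 2408 CPM after exercise. Leaving it out, a choice made after its values were seen, put control replicate 3 at 3639 CPM, within the 3411 to 4356 CPM of the exercised libraries, while control replicates 1 and 2 were at 554 and 418 CPM. Hemocyte markers summed to 793 to 1408 CPM in the controls against 1327 to 1757 CPM after exercise. Of the 8, 3 were called higher: NimC1 (log2 fold change 2.79, adjusted p = 0.00114), lz (1.80, adjusted p = 0.00258) and PPO1 (1.009, adjusted p = 0.0263), while Hml did not pass (-0.45, adjusted p = 0.325). Malpighian tubule markers summed to 2.28 to 15.5 CPM in the controls against 0.697 to 4.39 CPM after exercise. Ring gland markers summed to 21.1 to 100.5 CPM and 11.0 to 72.3 CPM. The dosage compensation RNA roX1, which is made in males, was at 79.4 to 160.3 CPM without exercise and 4.03 to 56.2 CPM with it (adjusted p = 0.203), and roX2, its partner RNA, at 2.47 to 4.92 CPM and 0 to 1.34 CPM (adjusted p = 0.0987). Both sets of ranges were apart, although neither gene passed in the main test. Each passed in 2 alternatives. These were limma-voom (adjusted p = 0.0274 for roX1 and 0.0376 for roX2) and edgeR without exercised replicate 1 (0.00610 and 0.00519). Of the other checks of sex, msl-2, a dosage compensation gene, was lower in exercised larvae (log2 fold change -1.69, adjusted p = 0.0115) and Sxl, the sex determination switch, was higher (0.70, adjusted p = 0.00223). How many males a library held is not labelled. The part of sex, fat body, hemocytes or other tissue in the results below was not tested. Values of single libraries given beside a result are descriptive. In RNA from a mixed tissue, fewer cells of a type and less RNA per cell cannot be told apart.

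**Figure D1:**
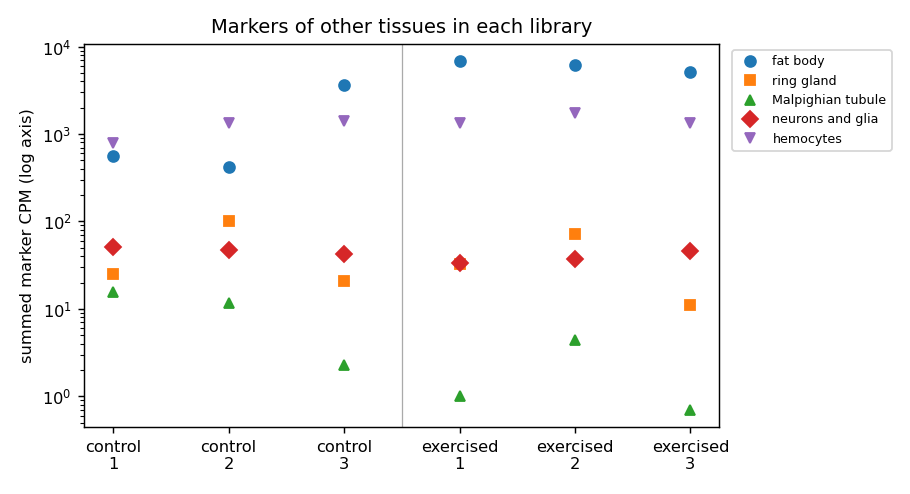
Summed CPM of markers of 5 tissues (log axis) in each of the 6 libraries, 1 point for each tissue and library. Fat body markers reached 3641 CPM in control replicate 3, and ring gland markers were highest in control replicate 2, at 100.5 CPM.

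Of the 7 genes, 3 were higher in exercised larvae (Jhe, Met and Kr-h1), 2 were lower (Jheh2 and Jheh3) and 2 did not pass (Jheh1 and gce). Among all tested genes 10.3% were higher and 8.52% lower, 18.8% in all. The CPM ranges of the groups did not overlap for 5 of the 7 genes, the same ones that passed, against 39.2% of all tested genes. The median log2 fold change of the 7 was -0.15, and that of all tested genes was -0.015. Among the breakdown genes, Jhe rose while Jheh2 and Jheh3 fell.

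**Figure D2:**
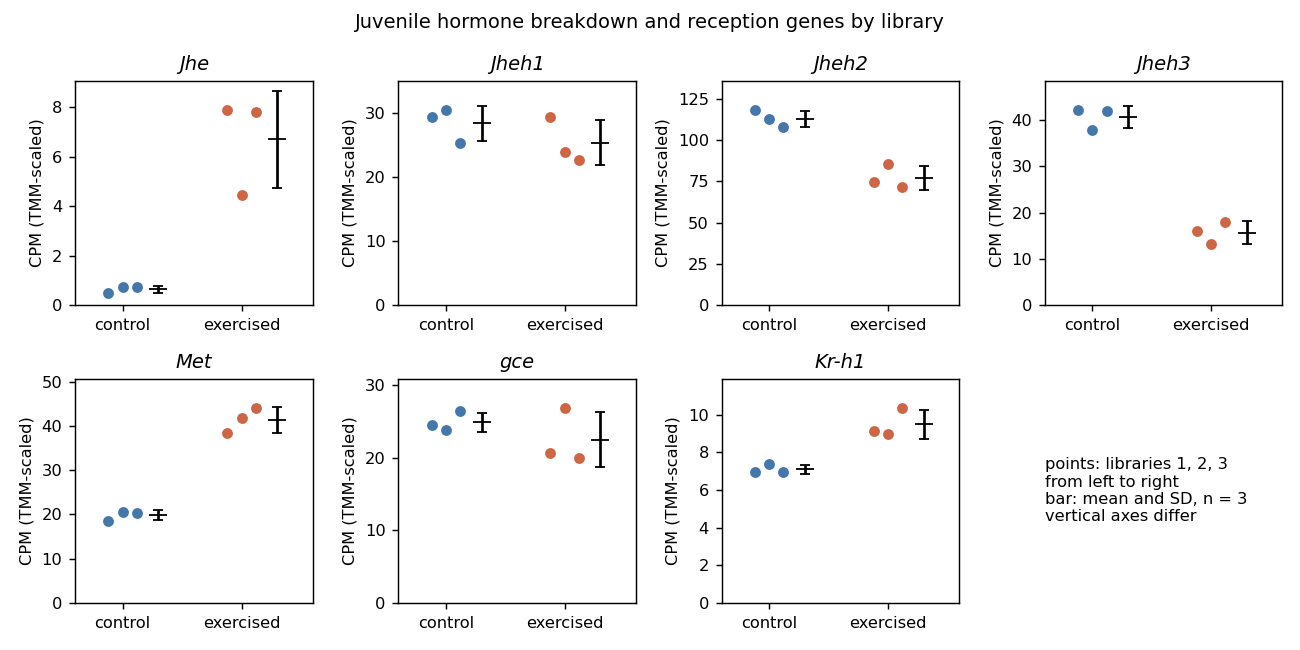
CPM of each of the 7 genes in each library, with points for libraries 1 to 3 of a group from left to right and bars for the mean and SD (n = 3). The vertical axes start at 0 and differ between genes. The groups are separate for Jhe, Jheh2, Jheh3, Met and Kr-h1 and overlap for Jheh1 and gce.

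Jhe encodes juvenile hormone esterase, and it was the member that changed most. The gene (FBgn0010052) lies on chromosome 2R from 16119793 to 16122773 of release 6. It had 12, 16 and 16 counts in control replicates 1 to 3 and 165, 86 and 168 counts in exercised replicates 1 to 3. Scaled to library size, it was at 0.491, 0.738 and 0.731 CPM across the controls, and 7.89, 4.45 and 7.81 CPM across the exercised libraries. Every exercised library was thus well above every control library, and exercised replicate 2 was the lowest of its group. The log2 fold change was 3.36 (standard error, SE, 0.31, adjusted p = 0.000598), which is 10.3-fold, with a 95% interval of 6.25-fold to 16.8-fold. By log2 fold change it ranked 70 among the 9127 genes.

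The control libraries held 44 counts of Jhe in all, so its fold is known only within that interval. The rise stayed within log2 fold changes of 3.18 and 3.58 in the 15 alternative settings that kept the gene, and it passed in each of them. The heat-inducible Hsp83, with 2352, 1121 and 1725 CPM, was also lowest in exercised replicate 2. The eye color gene w, a marker carried by many transgenes, followed the same order, with 114.9, 40.9 and 100.5 CPM in exercised replicates 1 to 3 and at most 0.0819 CPM in control. Whether these bear on the level of Jhe was not tested. In control replicate 3 fat body markers summed to 3641 CPM, against 556 CPM in control replicate 1 and 420 CPM in control replicate 2. Jhe was at 0.731 CPM in that library, from 16 counts, and at 0.738 CPM in control replicate 2. The part of fat body in the level of Jhe was not tested. Jhedup, named for its likeness to Jhe, had 7 counts over the control and 1 over the exercised libraries and was not tested.

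The 3 epoxide hydrolase genes lie side by side on the minus strand of chromosome 2R, within 8645 bases. Jheh1 (FBgn0010053) runs from 18853434 to 18855087, Jheh2 (FBgn0034405) from 18855767 to 18858245 and Jheh3 (FBgn0034406) from 18860375 to 18862078. The annotation used here also places a noncoding RNA, asRNA:CR46485, on the opposite strand across 1486, 1765 and 780 exon bases of Jheh1, Jheh2 and Jheh3, and its identifier is not in the count table. The sources used here do not give the strand setting of the counting, and reads of the 3 genes and of this antisense RNA cannot be told apart.

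Jheh3 fell most of the cluster. It was at 42.1, 37.9 and 42.0 CPM in the controls (replicates 1, 2 and 3, in that order throughout) against 15.9, 13.2 and 17.9 CPM after exercise. Every control library was well above every exercised one, and the replicates of each group lay close together. Jheh3 fell by 1.37 on the log2 scale (SE 0.12, adjusted p = 0.000562), a 2.59-fold lower level in exercised larvae.

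Jheh2, the most abundant of the 3, also fell but by less. It was at 118, 113 and 108 CPM in the controls against 74.9, 85.4 and 71.4 CPM after exercise, without overlap. It fell by 0.55 on the log2 scale (SE 0.090, adjusted p = 0.00594), a 1.46-fold lower level, and when the test was of a change beyond 1.5-fold it did not pass (adjusted p = 1.00). Jheh1 did not pass. It was at 29.3, 30.4 and 25.3 CPM in the controls against 29.3, 23.9 and 22.6 CPM after exercise, so the groups overlapped. Its log2 fold change was -0.16 (SE 0.12, adjusted p = 0.405), with a 95% interval of -0.45 to 0.12.

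The change of Jheh3 thus differed from those of Jheh1 and Jheh2, and ratios taken within a library show this without any scaling between libraries. Jheh1 and Jheh2 were not compared with each other in this way. Jheh3 had 1.44, 1.25 and 1.66 counts for each Jheh1 count in control replicates 1 to 3 and 0.544, 0.551 and 0.793 in exercised replicates 1 to 3. The mean log2 ratio was 1.21 lower in exercised larvae, 2.32-fold. Jheh3 had more counts than Jheh1 in every control library and fewer in every exercised library. Against Jheh2, the ratio of Jheh3 was 0.356, 0.336 and 0.388 in control and 0.213, 0.154 and 0.251 in exercised replicates 1 to 3, a 1.78-fold drop of the mean log2 ratio. Of all counts in the cluster, Jheh3 held 22.4% ± 1.49 in control and 13.3% ± 2.63 in exercised larvae (mean ± SD, n = 3), while Jheh2 held 62.1% ± 0.381 and 65.3% ± 3.89. In an exact two-sided permutation test over the libraries each ratio gave p = 0.1, which is the smallest p that 3 libraries against 3 allow, and p = 0.1 after adjustment over the 3 ratios compared. The test therefore could not pass 0.05, although no control library overlapped an exercised one.

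**Figure D3:**
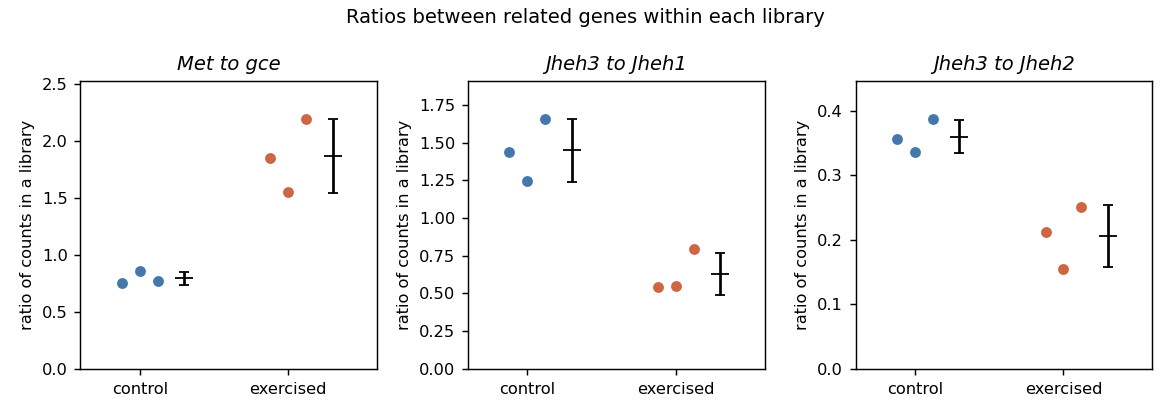
Ratio of the counts of 2 related genes within each library, with points for libraries 1 to 3 of a group from left to right and bars for the mean and SD (n = 3). The ratio of Met to gce was 0.754 to 0.864 in control and 1.56 to 2.20 in exercised libraries, and both Jheh3 ratios were lower in each exercised library.

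Malpighian tubule markers differed between the libraries beside these genes. Their sum was 15.5, 11.6 and 2.28 CPM without exercise and 1.00, 4.39 and 0.697 CPM with it. Uro, the urate oxidase gene of that tissue, had 2 counts over the exercised and 116 over the control libraries. Uro was below the low-count filter and was not tested. Of the 4 markers only 1 was tested, and it did not pass. Control replicate 3 was the lowest control for these markers. Its Jheh3 level of 42.0 CPM was within the range of the other control libraries, and its Jheh2 level of 108 CPM was the lowest of the control group. Without control replicate 1, the highest for these markers, Jheh3 fell by 1.35 (adjusted p = 0.00247) and Jheh2 by 0.52 (adjusted p = 0.0220). Control replicate 2, at 11.6 CPM, was still above every exercised library in that fit, so the fit did not even out these markers. The part of this tissue in the levels of the 3 genes was not tested. Midgut markers were nearly absent, with sums of at most 0.669 CPM.

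Of the receptor genes, Met rose and gce did not pass. Met (FBgn0002723) lies on chromosome X from 11616124 to 11621280, and gce (FBgn0261703) on the same chromosome from 15297766 to 15319074. Met was at 18.5, 20.6 and 20.3 CPM in the controls against 38.3, 41.8 and 44.1 CPM after exercise. The replicates of each group lay close together and far from the other group. Control replicate 3, with its high fat body markers, was within the range of the other controls. The part of fat body in the level of Met was not tested. The log2 fold change was 1.07 (SE 0.091, adjusted p = 0.000473), a 2.09-fold rise with a 95% interval of 1.81-fold to 2.42-fold.

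gce was at 24.5, 23.8 and 26.4 CPM in the controls against 20.65, 26.88 and 20.04 CPM after exercise. Exercised replicate 2 was above every control library and the other exercised libraries were below every control library. The log2 fold change was -0.15 (SE 0.13, adjusted p = 0.479), with a 95% interval of -0.44 to 0.15, so that a change as large as that of Met lies outside it. Exons of gce share 2197 and 167 bases with antisense RNAs that had 3 and 52 counts over all libraries.

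Within a library, Met had 0.754, 0.864 and 0.770 counts for each gce count in control replicates 1 to 3 and 1.86, 1.56 and 2.20 in exercised replicates 1 to 3. Control larvae had more gce than Met counts in each library, and exercised larvae the reverse. The mean log2 ratio differed by 1.22 (2.33-fold; exact permutation test, two-sided, p = 0.1, the smallest possible). Both genes are X-linked, and the groups differed in msl-2 and Sxl as given above. The part of sex in the rise of Met was not tested. The median log2 fold change over the 1464 tested X-linked genes was 0.027, against -0.015 over all tested genes. Of the X-linked genes 11.8% were called higher and 5.46% lower, against 10.3% and 8.52% of all tested genes. These X-linked values are descriptive and do not measure the share of males in a library. Among exercised libraries, replicate 1 had the highest roX1 level, at 56.2 CPM against 4.03 and 4.74 CPM, and its Met level was the lowest of the 3. Without it, the log2 fold change of Met was 1.12 (adjusted p = 0.000668). The exercised libraries kept in that fit were the ones lowest in roX1, so it does not bear on the part of sex.

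Kr-h1, the target gene of the hormone receptor, was slightly higher in exercised larvae, but its call was not stable. The gene (FBgn0266450) lies on chromosome 2L from 6082603 to 6096498. It was at 6.96, 7.38 and 6.94 CPM in the controls against 9.13, 8.996 and 10.4 CPM after exercise. The groups did not overlap, although the gap between them, relative to the level, was smaller than for the other genes that passed. Its log2 fold change was 0.42 (SE 0.11, adjusted p = 0.0391), a 1.34-fold difference. It did not pass with DESeq2 (adjusted p = 0.0645), nor when control replicate 1 was left out (0.117), nor without control replicate 2 (0.0938), control replicate 3 (0.0763), exercised replicate 1 (0.0647) or exercised replicate 3 (0.159, adjusted p). The exons of Kr-h1 hold 5306 bases, of which 4168 (78.6%) are also exons of CG45075, a gene on the same strand. CG45075 had 0 counts in every library. Any read counted for both genes would have given CG45075 a count, so none was. The sources used here do not say how reads that fit both genes were otherwise treated. The level of Kr-h1 per base of exon was therefore computed over all its exons and over the unshared part.

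**Figure D4:**
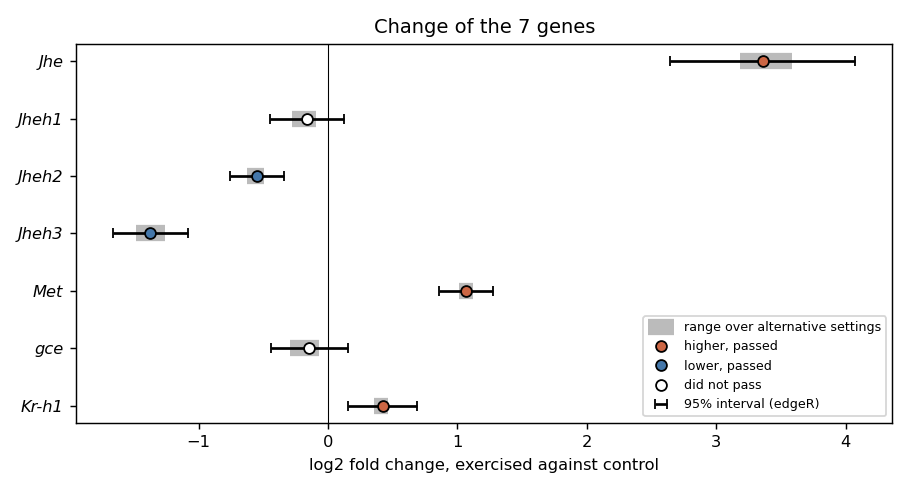
Log2 fold change of exercised against control larvae for the 7 genes, with 95% intervals from edgeR (black bars) and the range over the alternative settings (grey bars). Jhe lies at 3.36 and Jheh3 at -1.37, and the intervals of Jheh1 and gce cross 0.

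Levels of different genes were compared per kilobase of annotated exon, as CPM per kb. In control larvae Jheh2 was the highest at 58.7 ± 2.60 CPM per kb (mean ± SD, n = 3 here and below), followed by Jheh3 at 25.8 ± 1.52 and Jheh1 at 19.1 ± 1.79. The receptor genes were lower, with gce at 4.29 ± 0.231 and Met at 3.89 ± 0.226 CPM per kb. Kr-h1 was at 1.34 ± 0.047 over its whole exon length, below both receptor genes. Over the 1138 bases that it does not share, with all its counts placed there, it was at 6.24, above both. Jhe was the lowest at 0.311 ± 0.067 CPM per kb. The ranges of neighbours in this order did not overlap when Kr-h1 was taken over its whole length. The bases that gce shares with antisense RNAs were not taken out of its length.

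In exercised larvae the order of these levels differed. Jheh2 was still the highest at 40.1 ± 3.78 CPM per kb, with Jheh1 at 17.0 ± 2.36. Jheh3 at 9.95 ± 1.52 and Met at 8.14 ± 0.568 CPM per kb overlapped in range, as did gce at 3.88 ± 0.652 and Jhe at 3.196 ± 0.935 CPM per kb. Kr-h1 was at 1.79 ± 0.143 over its whole exon length and 8.35 over the unshared part. The range of Jhe thus met that of a receptor gene. By mean CPM per kb the epoxide hydrolase genes stayed the highest of the 7, though Jheh3 was not clear of Met.

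The other genes of the pathway were taken from 6 lists. Of their 32 genes, 30 were in the table under a known symbol and 25 had enough counts for the test. Of these 25, the test called 2 higher and 1 lower and left 22 without a call, with a median log2 fold change of -0.066. Over all tested genes 10.3% were called higher and 8.52% lower, and the median was -0.015. The broad gene br and Jhdk, a juvenile hormone diol kinase gene, had no identifier with that symbol in the table.

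Of the 9 tested genes of hormone synthesis, 0 passed, where 18.8% of all tested genes did. jhamt, which encodes the methyltransferase that makes the hormone in the corpora allata, was at 0.410, 2.54 and 0.502 CPM across the controls, and 1.20, 2.02 and 0 CPM across the exercised libraries (log2 fold change -0.11, adjusted p = 0.964). Its level varied with the other ring gland genes: spok, an enzyme gene of ecdysone synthesis, was at 6.27, 32.0 and 6.21 CPM in the controls against 11.998, 27.2 and 2.60 CPM after exercise. Replicate 2 of each group was the highest for both genes, and the part of the amount of ring gland in the jhamt values was not tested. Hmgs, the most abundant gene of the list and an early enzyme of the mevalonate pathway, was at 56.9 to 83.1 CPM without exercise and 59.9 to 75.6 CPM with it (adjusted p = 0.610). DESeq2 and limma-voom also called 0 of the 9. At an unadjusted p under 0.05 there was 1 gene in edgeR and limma-voom, Mvd (adjusted p = 0.133 in edgeR), a decarboxylase of the mevalonate pathway, and 0 in DESeq2.

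Of the receptor partners, Hsp83 rose and the others did not pass. Hsp83, the Hsp90 chaperone that helps Met enter the nucleus, was at 362, 350 and 452 CPM across the controls, and 2352, 1121 and 1725 CPM across the exercised libraries, a log2 fold change of 2.16 (SE 0.29, adjusted p = 0.00552). It is also a heat shock gene with many other clients. tai, the DNA-binding partner of Met and gce, was at 121, 136 and 126 CPM in the controls against 113, 136 and 124 CPM after exercise (log2 fold change -0.037, SE 0.094, adjusted p = 0.828). Its 95% interval ran from -0.25 to 0.18, so a rise of the size seen for Met lies outside it. Nup358 and ftz-f1 had adjusted p of 0.805 and 0.732.

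The gene to (takeout), listed here under hormone carriers and also responsive to starvation and the clock, was low and fell. Whether its product carries the hormone was not measured. It was at 1.02, 0.784 and 1.42 CPM without exercise and 0.143, 0.414 and 0.186 CPM with it, with 73 and 15 counts over the groups. It fell by 2.11 on the log2 scale (SE 0.49, adjusted p = 0.0234), but its adjusted p rose to 0.0578 when control replicate 1 was left out, 0.0666 without control replicate 3, 0.0711 without exercised replicate 1 and 0.0969 without exercised replicate 3, and so it did not pass. apolpp, which encodes the lipoprotein that carries lipids in the hemolymph, did not pass (adjusted p = 0.431), while without control replicate 3 it passed at 2.72 on the log2 scale (adjusted p = 0.00110). apolpp is itself one of the 8 fat body markers, and the part of fat body in its level was not tested.

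Of 4 tested regulators of the corpora allata, AstC-R2, a receptor for the allatostatin C peptide, rose from 0.538 ± 0.145 to 2.59 ± 0.819 CPM (mean ± SD, n = 3), a change of 2.25 on the log2 scale (SE 0.37, adjusted p = 0.00574). It passed without each library in turn. AstA-R2 was lower by 0.73 and did not pass (adjusted p = 0.0765), though without control replicate 3 it did (log2 fold change -0.92, adjusted p = 0.0277). The peptide genes AstA and AstC had adjusted p of 0.945 and 0.544. Of the metamorphosis genes held back by Kr-h1 or linked to it, EcR, usp and Eip75B did not pass (adjusted p = 0.433, 0.612 and 0.375), and Eip93F, which marks the adult program, had 9 and 4 counts over the groups and was not tested.

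**Figure D5:**
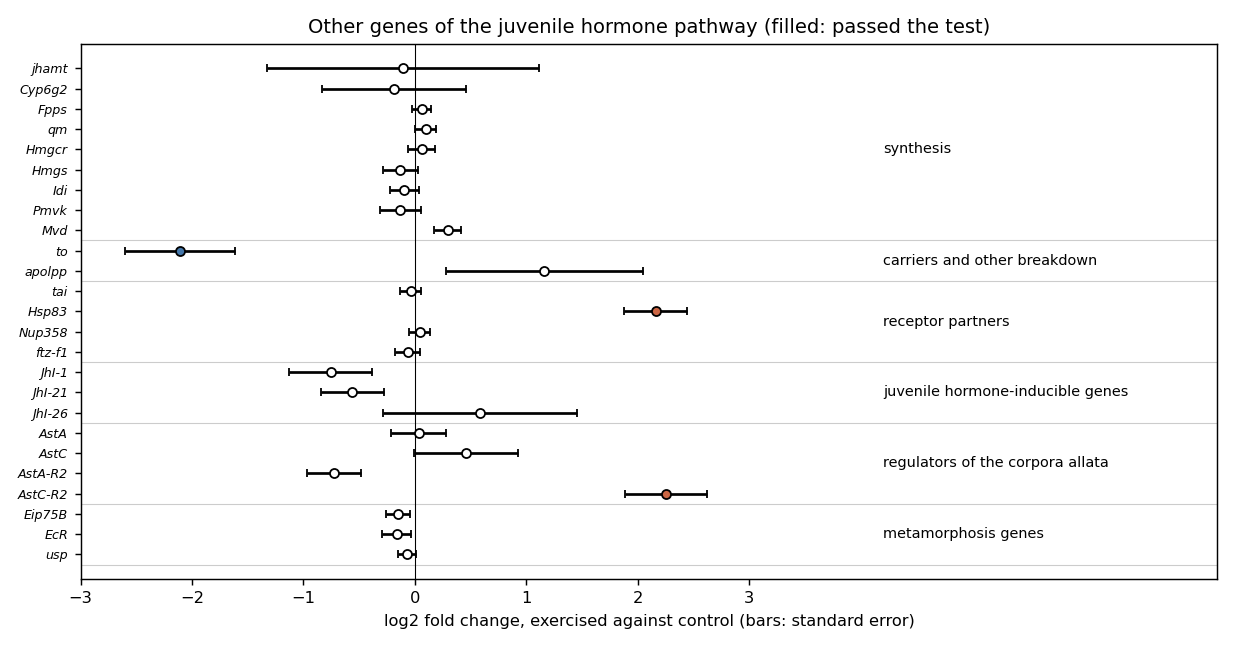
Log2 fold change of exercised against control larvae (horizontal axis) for the 25 tested genes of 6 pathway lists, with bars for the standard error. The genes that passed are Hsp83 and AstC-R2 on the right and to on the left.

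Genes named for their induction by juvenile hormone in cultured cells split the exercised libraries. JhI-1, listed as RNaseZ in the annotation, was at 36.9, 38.9 and 42.0 CPM across the controls, and 13.5, 37.2 and 19.1 CPM across the exercised libraries. JhI-21, an amino acid transporter gene, showed the same order with 67.6, 69.6 and 76.3 CPM and 32.1, 70.5 and 42.2 CPM. In both, exercised replicate 2 was at the level of the control libraries and the other exercised libraries were below all of them. Neither gene passed (adjusted p = 0.223 and 0.233), but without exercised replicate 2 both did, with log2 fold changes of -1.27 (adjusted p = 0.00242) and -0.94 (adjusted p = 0.00397). JhI-26 was at 39.8 to 44.7 CPM in the controls against 10.7, 133 and 46.6 CPM after exercise (adjusted p = 0.699). Exercised replicate 2 was also the lowest exercised library for Jhe and Jheh3 and the highest for gce, and what set it apart was not tested.

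Genes whose levels over the 6 libraries ran most like a member were found by Pearson's correlation of log2 CPM among tested genes averaging 5 CPM or more. With only 6 libraries in 2 groups many genes correlate highly, and 281 of 6625 genes reached more than 0.95 with Jhe. Closest to Jhe were CG6511 (r = 0.998), the heat shock gene Hsp70Bc (r = 0.997) and CG10226 (r = 0.997). Closest to Jheh3 were BORCS6 (r = 0.996), the cytochrome P450 gene Cyp4e3 (r = 0.995) and CG12099 (r = 0.993). Cyp4e3 went from 123 to 6.04 CPM, a much steeper fall than that of Jheh3. Closest to Met were CG14995, Dif, an NF-kappaB factor of the Toll pathway, and stc (r = 0.998 for each), and closest to Kr-h1 were swm (r = 0.994), CG5909 (r = 0.991) and RhoGAP19D (r = 0.991). These correlations describe 6 libraries that share the difference between the groups.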

How the data were processed

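The authors deposited 1 table of raw counts per gene for 6 libraries. Per the labels and the study's methods, reads were checked with FastQC, mapped by STAR on genome release 6 and summarised per gene by featureCounts; the sources used here do not give versions, strand setting or the handling of reads shared by genes. Symbols, positions and exon lengths came from the Ensembl annotation of that release, which gave a symbol to 17200 of 17477 identifiers. Counts were tested in R 4.3.3 with edgeR 4.0.16 (filterByExpr, TMM, glmQLFit with robust estimation, glmQLFTest, Benjamini-Hochberg over 9127 genes, threshold 0.05). Alternatives were DESeq2 1.42.0, limma-voom (limma 3.58.1), other scalings and filters, a test beyond 1.5-fold, a replicate block, a fit without the 20 most abundant genes and each library left out. Ratios took a pseudocount of 0.5. The code was tested on simulated data. Named were all 7 members, the called genes (at most 4) and the most abundant gene of each list, jhamt, tai, chromosomal neighbours, the 3 most correlated genes and checks of genotype and sex; other pathway and marker genes named (among them Lsp1gamma, Fbp1, NimC1, lz, PPO1, Hml, spok, Uro, Mvd, AstA-R2, AstA, AstC, Nup358, ftz-f1, usp, EcR, JhI-1, JhI-26, Eip93F and Jhedup) were chosen after their values were seen. Members and lists were chosen with earlier results of these data known.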

Additional observations from a re-analysis of the deposited data

How the results depend on the processing

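Jhe, Jheh3 and Met passed, and Jheh1 and gce did not pass, in every alternative that gave a value; a filter of at least 1 CPM in every library left Jhe without one. Jheh2 did not pass in the test beyond 1.5-fold (log2 fold change -0.55, adjusted p = 1.00), nor did Kr-h1 (0.42), which also missed with upper-quartile scaling (0.37, adjusted p = 0.0608), with DESeq2 (0.43, adjusted p = 0.0645) and without the low-count filter (0.43, adjusted p = 0.0549). Leaving out each library gave Kr-h1 0.35 to 0.46 (adjusted p = 0.0457 to 0.159). The test beyond 1.5-fold called 3 of the 7 members. Of the pathway lists, 1 gene passed under the stricter filter, which left to and AstC-R2 untested, as it did Jhe. With a library left out, 2 to 5 passed, with 5 in the fit without exercised replicate 2. The replicate numbers are shared by the groups, but deviations of same-numbered libraries correlated at -0.222, 0.00292 and -0.24, so the numbers were not taken as pairs. With the replicate block Kr-h1 was at 0.42 (adjusted p = 0.116) and 4 members passed. The share of all tested genes that passed was not computed for these alternatives, so the counts of genes passing have no share beside them. Low counts limit Jhe, to and AstC-R2.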

Other observations

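The tested genes next to the members on the chromosome were given as a description. Beside Jhe, spin, which encodes a lysosomal carrier protein, was higher in exercised larvae (log2 fold change 0.76, adjusted p = 0.00757 in edgeR), and Asph on the other side did not pass (-0.046, adjusted p = 0.744). Beside the Jheh cluster, CG18190 (-0.29, adjusted p = 0.488) and sano (0.076, adjusted p = 0.669) did not pass. Beside Met, CG1703 (0.23, adjusted p = 0.153) and Ptp10D (0.20, adjusted p = 0.0827) did not pass. Beside gce, Top1, the type I topoisomerase gene, was higher (0.35, adjusted p = 0.0316), and CG5877 did not pass (0.16, adjusted p = 0.590). Beside Kr-h1, Kr-h2 (0.022, adjusted p = 0.877) and CG9175 (-0.32, adjusted p = 0.0859) did not pass.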
